A study of Drosophila melanogaster with 34 samples.

Results

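Cytochrome P450 enzymes are haem monooxygenases that insert 1 atom of oxygen into lipids, hormones and foreign compounds. In insects they are grouped into the CYP2, CYP3, CYP4 and mitochondrial clans. The CYP3 clan, with the Cyp6, Cyp9 and Cyp28 families, is best known for the metabolism of plant toxins and insecticides, the CYP4 clan for fatty acids and hydrocarbons, and the CYP2 and mitochondrial clans for moulting hormone, although some mitochondrial Cyp12 enzymes also act on insecticides. Many of these genes sit in tandem clusters and are induced by foreign chemicals, and in flies ethanol itself is broken down mainly by alcohol dehydrogenase, which is no P450.

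The P450 family was examined in newly hatched first-instar larvae of Drosophila melanogaster from an ethanol selection experiment. Members were the probe sets annotated with a single gene whose symbol begins with Cyp and a digit, with a log2 value of at least 4 on at least 5 of the 34 arrays. This rule kept 63 of 85 such probe sets. Of the 63, Cyp1 and Cyp40 are cyclophilins, peptidyl-prolyl isomerases that share only the symbol stem, so they were set apart. That left 61 P450 probe sets for 59 genes among 9729 probe sets tested and 18769 on the array, with 2 probe sets each for Cyp18a1 and Cyp12e1. They comprised 17 probe sets of the Cyp4 family, 19 of Cyp6, 5 of Cyp9, 7 of Cyp12, 3 of Cyp28 and 10 of other families. By clan, 3 belonged to CYP2, 29 to CYP3, 20 to CYP4 and 9 to the mitochondrial clan.

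The 22 P450 probe sets that did not reach the level included 17 that were at 4 on no array, among them Cyp4ac2, Cyp6a22, Cyp6t1, Cyp6v1 and Cyp28c1. Just outside the rule were Cyp4d8 and Cyp4d20, each at 4 or above on 4 arrays, all of them water arrays. Just inside was Cyp6g2 on 12 arrays, followed by Cyp6d2 and the second Cyp18a1 probe set on 18 each. The second Cyp18a1 set was at 4 on 16 water and 2 ethanol arrays and so passed mostly through the exposure in which it was higher. Each of the other 60 was at 4 on at least 5 arrays of both exposures, and 50 of the 61 were at 4 on every array.

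The study compared 6 populations founded from 1 outbred base stock of wild-caught flies, after more than 300 generations. The control populations R1 and R2 were kept on standard medium, the ethanol populations E1 and E2 on medium with 12% ethanol, and the variable populations M1 and M2 in vials of both media in equal number, whose offspring were mixed each generation. All flies were then reared on standard medium at 25°C, and laid eggs were soaked for 15 hours in water or in 18% ethanol, which gave about 12% after dilution. RNA of 50 to 200 pooled larvae was extracted once per population and exposure on each of 3 days, numbered 1, 2 and 5, and 34 of the 35 hybridised samples were analysed, 17 per exposure. M1 has no water array on day 2 and M2 no ethanol array on day 1. Each regime has 2 populations, so population and regime are separated only by that pair. In whole larvae, fewer cells of a type and less RNA per cell cannot be told apart.

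Values are log2 expression after GCRMA, and array medians lay between 3.89 and 4.02. Levels are therefore compared within a probe set and never between genes. The population labels of the M and E arrays of day 5 are in doubt. On the profiles of days 1 and 2, 7 of these 8 arrays correlated best with the same-numbered population of the other regime, the exception being the E2 water array. Of the other 26 arrays 24 matched their labels. The M1 water array of day 1 correlated best with E1 (0.270, and 0.259 with M1). The R2 ethanol array of day 1 correlated best with E2 (0.303 with R2). Both were kept in all results that use day 1. Cyp12d1-d, a mitochondrial P450 induced by several xenobiotics, shows the day 5 pattern plainly. The libraries labelled E1 read 2.55, 2.87, 2.89 and 3.12 on days 1 and 2 but 7.34 and 7.39 on day 5. The libraries labelled M1 read 7.32, 8.12 and 9.12 on days 1 and 2 but 2.82 and 3.07 on day 5. Labels were kept as given, and many results that rest on M or E arrays are also stated without the day 5 arrays of those populations. Where no such value is stated, the result includes them. This holds for the regime differences of Cyp6a16, Cyp4p3, Cyp6g1, Cyp6d5 and Cyp28a5 and for the response difference of Cyp309a1.

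**Figure D1:**
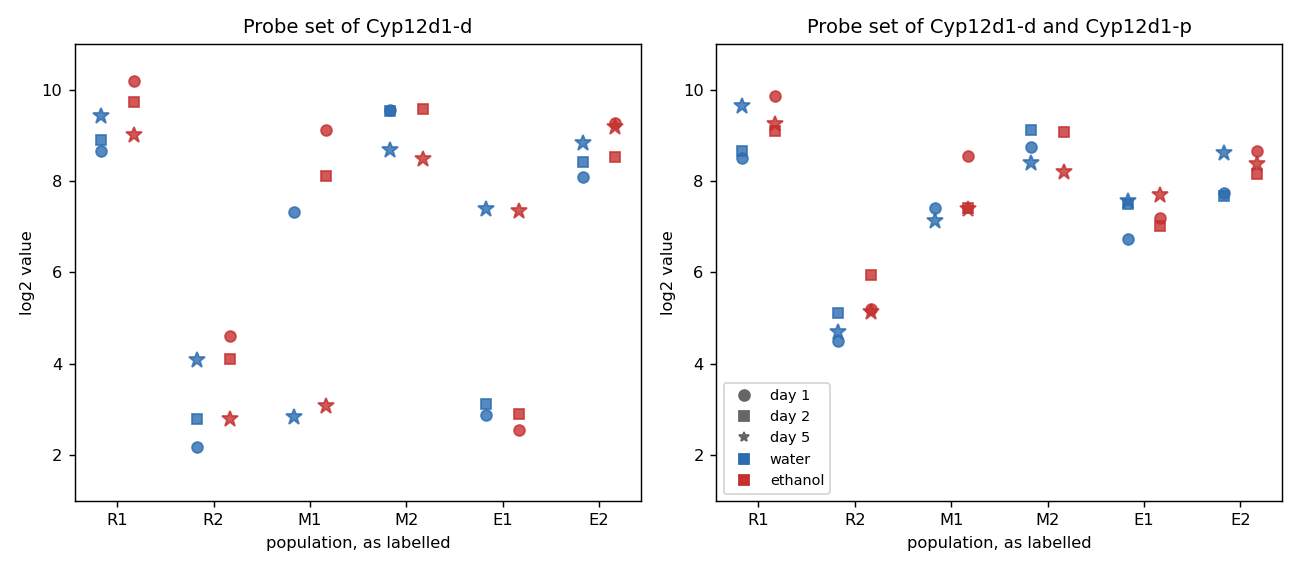
Log2 values of Cyp12d1-d (left) and of the probe set shared by Cyp12d1-d and Cyp12d1-p (right) on each array, by population as labelled, with water in blue, ethanol in red and the day as the symbol. R2 is low in both panels, and E1 and M1 change places on day 5 in the left panel.

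Ethanol exposure moved P450 transcripts in both directions. Over the 6 populations, 34 of 61 P450 probe sets passed an adjusted p of 0.05 in limma, that is 55.7%, beside 31.2% of all probe sets tested. Of these, 15 were higher and 19 lower in ethanol, beside 15.2% higher and 16% lower among all probe sets. The second Cyp18a1 probe set is among the falls and passed the level mostly through water arrays, so the rule favoured a difference. Without this probe set the count is 33 of 60, or 55%. The median difference was -0.03 for the P450s and 0.00 for all probe sets, and the median size of a difference, without sign, was 0.23 against 0.11 on the log2 scale. Without the day 5 arrays of M and E, 27 P450 probe sets passed, beside 25.4% of all probe sets. Of the 34 calls 24 were kept and 10 lost, and 3 were gained, on Cyp6a20, Cyp9b2 and Cyp9f2. The calls lost were those on Cyp12b2, both sets of Cyp12e1, Cyp4ac3, Cyp4d14, Cyp4p2, Cyp6a13, Cyp6d4, Cyp6d5 and Cyp9c1, with adjusted p from 0.0587 for Cyp12b2 to 0.334 for the Cyp12e1 set with the smaller fall.

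Calls were spread over all families. In the Cyp12 family 6 of 7 probe sets fell and none rose, of which 3 passed without the day 5 arrays of M and E, and in Cyp28 2 of 3 fell and none rose. In Cyp6 7 of 19 rose and 2 fell, in Cyp4 3 of 17 rose and 5 fell, and in Cyp9 1 of 5 rose and 1 fell. Among the other families 4 of 10 rose and 3 fell. By clan, 2 of 3 CYP2 probe sets fell, both of them Cyp18a1 sets, and for the second the rule favoured a difference. Of the rest, 9 of 29 CYP3 rose and 5 fell, 4 of 20 CYP4 rose and 6 fell, and 2 of 9 mitochondrial rose and 6 fell. The 2 mitochondrial risers, Cyp49a1 and Cyp301a1, lie outside the Cyp12 family. Differences between families were not tested.

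**Figure D2:**
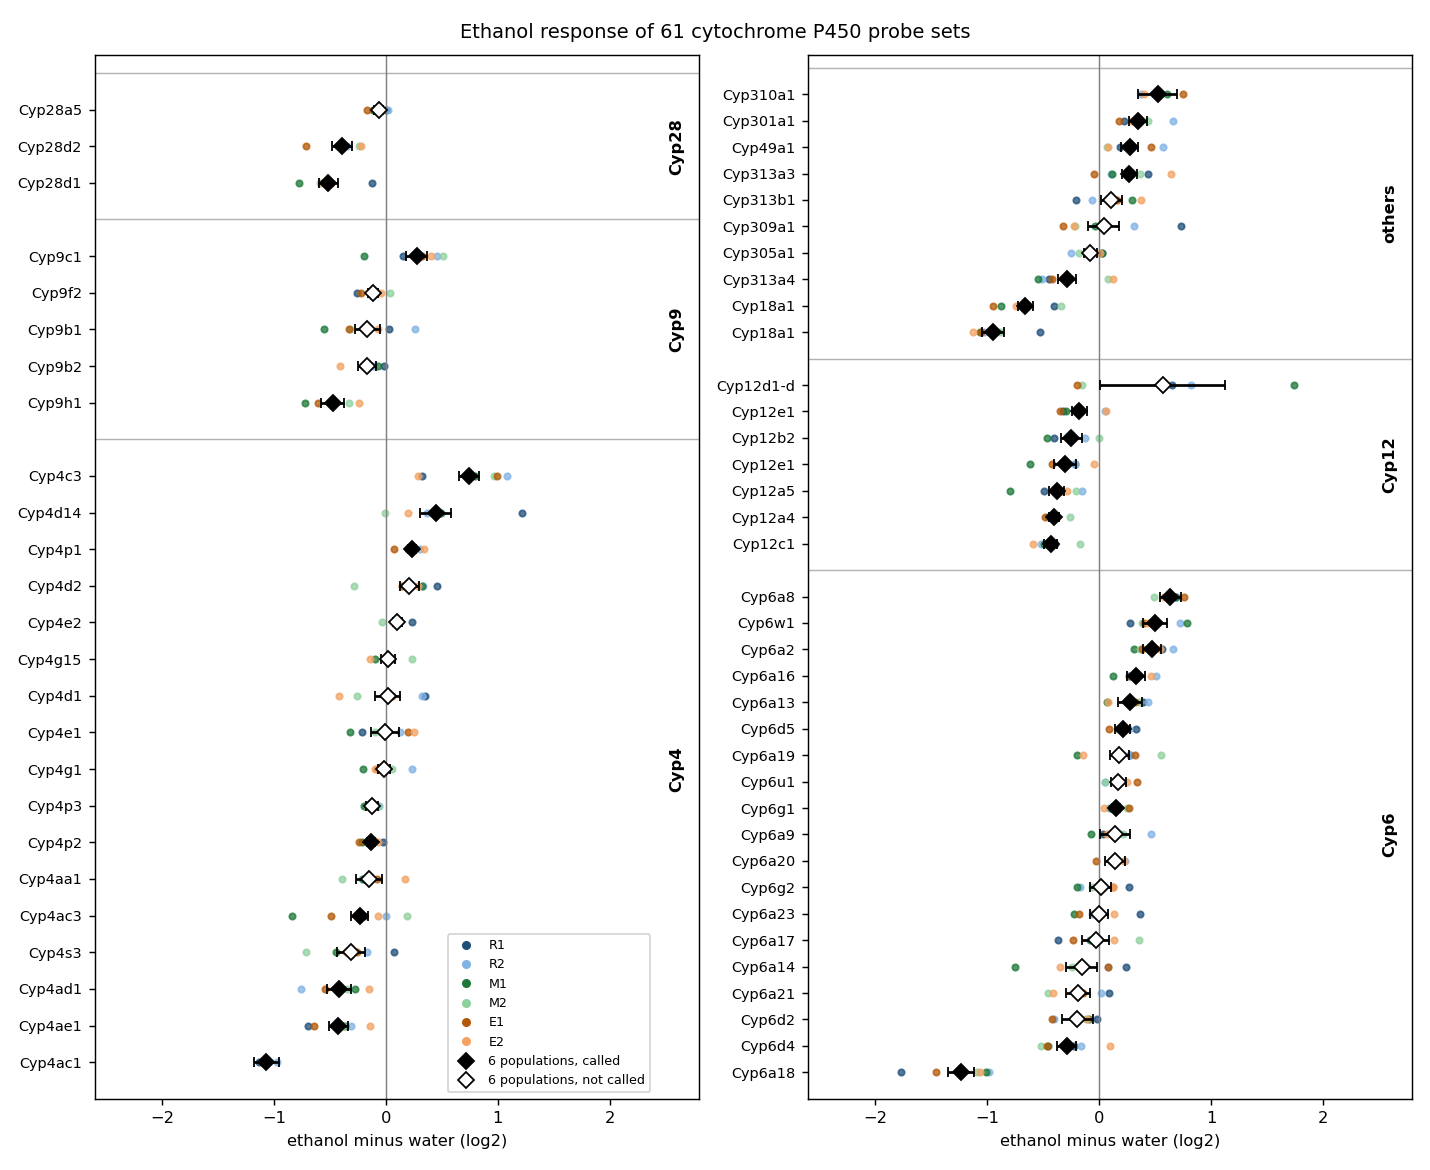
Ethanol minus water (log2) for the 61 P450 probe sets by family, with 1 coloured dot per population and a diamond for the mean over 6 populations with its limma standard error, filled where the adjusted p is under 0.05. The filled diamonds of Cyp12 and Cyp28 all lie below 0, while 7 of the 9 in Cyp6 lie above it.

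Among the CYP3 clan, the largest fall was in Cyp6a18, a Cyp6 gene. Its values ran from 5.10 to 6.25 with a median of 5.75 on the 17 water arrays, and from 3.20 to 5.06 with a median of 4.50 on the 17 ethanol arrays. The 2 sets of arrays did not overlap, which held for no other P450 and for 0.463% of all probe sets. Cyp6a18 fell by 1.23 ± 0.12 (limma standard error; adjusted p = 8.256e-09), a 2.35-fold difference. The differences by population ran from -1.77 in R1 to -0.99 in R2.

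The Cyp6 genes that rose included the insecticide-associated Cyp6a8, Cyp6a2, Cyp6w1 and Cyp6g1. Cyp6a8, a lauric acid hydroxylase inducible by barbiturates, read 8.27 to 9.82 with a median of 8.99 in water and 9.11 to 10.23 with a median of 9.63 in ethanol. The arrays overlapped, but all 6 populations were higher in ethanol, by 0.49 in M2 to 0.76 in E1. The mean rise of Cyp6a8 was 0.64 ± 0.10 (limma adjusted p = 1.007e-05).

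Cyp6a2, which metabolises several insecticides, read 7.81 to 8.78 with a median of 8.22 in water and 8.14 to 9.35 with a median of 8.65 in ethanol. It rose by 0.47 ± 0.08 (limma adjusted p = 5.402e-05), with a positive difference in every population. Cyp6w1 was between 9.97 and 11.72 in water and between 10.66 and 11.91 in ethanol, overlapping over most of the range. It rose by 0.50 ± 0.11 (limma adjusted p = 0.0006831).

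Cyp6g1, whose overexpression confers resistance to DDT and neonicotinoids, rose by only 0.15 ± 0.04 (limma adjusted p = 0.003958), positive in 6 of 6 populations. Its arrays overlapped almost fully, with 11.86 to 12.81 in water and 12.15 to 12.85 in ethanol. On each day alone the rise of Cyp6g1 was 0.16, 0.11 and 0.19, with adjusted p of 0.079, 0.0532 and 0.0733. Smaller rises were also called for Cyp6a16 (0.33), Cyp6a13 (0.28) and Cyp6d5 (0.21), and a fall for Cyp6d4 (-0.29). Cyp6a13 was close to the threshold at an adjusted p of 0.04467 and was lost without any 1 day, and Cyp6a16 was at 0.0505 without day 5.

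Cyp6a8 lies in the largest run of neighbouring P450 genes, with Cyp6a22, Cyp6a17, Cyp6a23, Cyp6a19, Cyp6a9, Cyp6a20, Cyp6a21 and Cyp317a1. Of the 7 tested members of this run Cyp6a8 alone passed in the ethanol response, joined by Cyp6a20 without the day 5 arrays of M and E. The others lay between -0.19 for Cyp6a21 and 0.18 for Cyp6a19. Difference from its neighbours was not tested.

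In Cyp28, a family linked to toxin metabolism in the cactus-feeding Drosophila mettleri, the adjacent genes Cyp28d1 and Cyp28d2 both fell. Cyp28d1, which is associated with nicotine resistance, read 10.85 to 11.91 with a median of 11.32 in water and 9.98 to 11.38 with a median of 10.97 in ethanol. Cyp28d1 fell by 0.51 ± 0.09 (limma adjusted p = 4.15e-05) and was lower in all 6 populations, least in R1 (-0.13). Cyp28d2 fell by 0.39 ± 0.09 (limma adjusted p = 0.001076), with population differences of -0.72 in E1 to -0.22 in E2. The arrays of both genes overlapped between exposures. The third tested member, Cyp28a5, differed by -0.06 ± 0.04 and was not called.

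The Cyp9 family, also of the CYP3 clan, gave 1 call each way. Cyp9h1 fell by 0.48 ± 0.10 (limma adjusted p = 0.001012; 0.101 without day 2), and Cyp9c1 rose by 0.28 ± 0.09 (limma adjusted p = 0.02644). The call on Cyp9c1 was lost when any of R2, M2, E1 or E2 was left out. Neither neighbour of the pair Cyp9b1 and Cyp9b2 was called, at -0.16 each. Cyp310a1, the last CYP3 member called, rose by 0.52 ± 0.17 (limma adjusted p = 0.02131), but not without day 2 (adjusted p = 0.242) or without the M1 water array of day 5 (0.0953).

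In the CYP4 clan the largest differences had opposite signs. Cyp4ac1 read 8.79 to 10.07 with a median of 9.28 in water and 7.70 to 8.96 with a median of 8.26 in ethanol, so that only the edges of the 2 sets overlapped. It fell by 1.07 ± 0.11 (limma adjusted p = 3.603e-08), and the 6 population differences lay close together, from -1.14 to -0.97. Its neighbour Cyp4ac3 fell by 0.23 ± 0.08 (limma adjusted p = 0.02376), and Cyp4ac2 between them was below the level for testing.

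Cyp4c3 showed the largest called rise of any P450. It read 7.64 to 9.13 with a median of 8.58 in water and 8.74 to 9.68 with a median of 9.19 in ethanol. The rise was 0.74 ± 0.09 (limma adjusted p = 6.873e-07), a 1.67-fold difference, with 0.29 in E2 and 0.33 in R1 and 0.80 to 1.08 in the other 4 populations. The arrays of the 2 exposures overlapped. On day 1 alone Cyp4c3 did not pass (0.58, adjusted p = 0.0895).

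Neighbouring CYP4 genes did not all give calls of 1 sign, although no run held calls of both signs without the day 5 arrays of M and E. Cyp4p1 rose by 0.23 ± 0.04 (limma adjusted p = 1.893e-05) in 6 of 6 populations, whereas the adjacent Cyp4p2 fell by 0.13 ± 0.04 (limma adjusted p = 0.007456) in 6 of 6. Without the day 5 arrays of M and E Cyp4p2 was at an adjusted p of 0.105. The third gene of that run, Cyp4p3, differed by -0.12 and was not called. In another run Cyp4d14 rose by 0.45 ± 0.14 (limma adjusted p = 0.01496) and Cyp4ae1 fell by 0.42 ± 0.09 (limma adjusted p = 0.0005021), with Cyp4d2 at 0.21 and not called. The Cyp4d14 call was lost without R1 (0.29, adjusted p = 0.166), without day 5 (adjusted p = 0.148), without the day 5 arrays of M and E (adjusted p = 0.0738) and without the day as a block (adjusted p = 0.43). The Cyp4ae1 call was lost without that block (adjusted p = 0.0701). In the run of Cyp4ad1, Cyp4e2 and Cyp4e1, Cyp4ad1 fell by 0.42 ± 0.11 (limma adjusted p = 0.003649), while Cyp4e2 (0.10, adjusted p = 0.06786) and Cyp4e1 (-0.01) were not called. Cyp4e2 did pass after quantile normalisation (adjusted p = 0.0296), without day 5 (0.0142) and with 6 population differences as replicates (0.0454).

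Cyp4g1, the oenocyte decarbonylase that makes cuticular hydrocarbons, differed by -0.02 ± 0.06 (limma adjusted p = 0.8599), and its relative Cyp4g15 by 0.02 ± 0.06. Water arrays of Cyp4g1 lay between 10.37 and 11.01 and ethanol arrays between 10.30 and 11.11, overlapping fully. In the Cyp313 family Cyp313a3 rose by 0.27 ± 0.07 (limma adjusted p = 0.004093) and Cyp313a4 fell by 0.29 ± 0.08 (limma adjusted p = 0.00975).

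**Figure D3:**
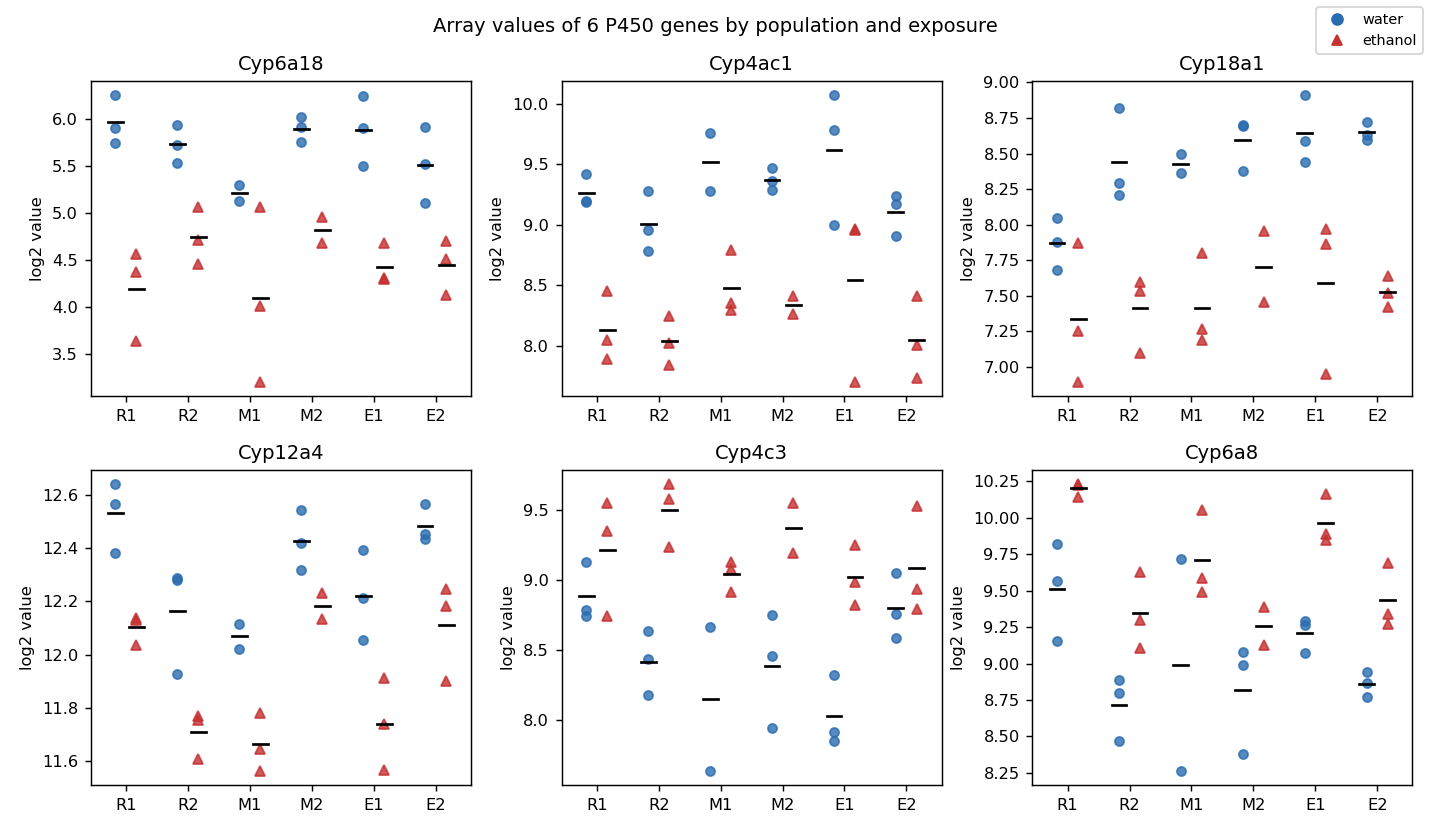
Log2 values on every array for 6 P450 genes by population, with water as blue circles, ethanol as red triangles and black bars for the means; for Cyp18a1 the brighter probe set is drawn. Cyp6a18, Cyp4ac1, Cyp18a1 and Cyp12a4 have lower ethanol means in each population, and Cyp4c3 and Cyp6a8 higher ones.

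In the mitochondrial clan the Cyp12 probe sets moved downward by modest amounts. Cyp12a4, whose overexpression confers resistance to lufenuron, read 11.93 to 12.64 with a median of 12.38 in water and 11.57 to 12.25 with a median of 11.90 in ethanol. It fell by 0.41 ± 0.04 (limma adjusted p = 4.23e-08), with population differences from -0.48 in E1 to -0.26 in M2. The adjacent Cyp12a5 fell by 0.38 ± 0.07 (limma adjusted p = 9.781e-05), and Cyp12c1 by 0.43 ± 0.05 (limma adjusted p = 8.469e-07). Arrays of all 3 genes overlapped between exposures. Cyp12e1 fell by 0.31 and 0.18 on its 2 probe sets and Cyp12b2 by 0.25, with adjusted p between 0.02226 and 0.04794.

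Cyp12d1-d was the Cyp12 member not called, at 0.57 ± 0.56 (limma adjusted p = 0.4718) over values of 2.17 to 9.56 in water and 2.55 to 10.18 in ethanol. Without day 5 of all populations its difference was 0.81 with a limma adjusted p of 0.000647, the opposite direction to the other Cyp12 genes. Without the day 5 arrays of M and E alone it was not called. On days 1 and 2 R2 read 2.17 and 2.79 in water and 4.61 and 4.11 in ethanol. Values below 4 depend on the background model, so the size of the 0.81 is uncertain. By day the Cyp12d1-d difference was 1.32, 0.42 and -0.23 on days 1, 2 and 5. Among the other mitochondrial genes Cyp301a1, which acts in adult cuticle formation, rose by 0.35 ± 0.08 (limma adjusted p = 0.001279), and Cyp49a1 by 0.27 ± 0.08 (limma adjusted p = 0.009304). Without day 5 the adjusted p of Cyp301a1 was 0.0614.

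The CYP2 clan was led by Cyp18a1, the hydroxylase that inactivates the moulting hormone 20-hydroxyecdysone. Its brighter probe set read 7.68 to 8.91 with a median of 8.50 in water and 6.90 to 7.97 with a median of 7.52 in ethanol. It fell by 0.95 ± 0.10 (limma adjusted p = 3.259e-08), from -0.53 in R1 to -1.12 in E2, and the arrays overlapped at the edges. The second Cyp18a1 probe set had a difference of -0.66 ± 0.07, which is no separate support, since ethanol arrays lay below the level of 4 on all but 2 arrays. Cyp305a1, the remaining CYP2 member, differed by -0.08 ± 0.06.

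Of the 34 called probe sets, 27 had 1 sign in all 6 populations, or 79.4%, beside 76.8% of all called probe sets. On the 3 days 33 of the 34 had 1 sign, beside 2914 of the 3037 called among all probe sets, the exception being a Cyp12e1 set at 0.02 on day 1. Both shares are near those of all called probe sets, and the calls were made on the same arrays. Over all 61 P450 probe sets 31 had 1 sign in the 6 populations, or 50.8%, beside 30.1% of all probe sets. Counts within single days, computed after the data were seen, were 12 on day 1, 23 on day 2 and 23 on day 5, beside 6.44%, 21% and 13.4% of all probe sets. All of these P450 counts include the second Cyp18a1 set, for which the rule favoured a difference. The cyclophilins Cyp1 and Cyp40 were not called, at -0.07 and 0.02.

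P450 genes with other names and the partners of P450s were counted as lists, to be read against the 31.2% of all probe sets called, 15.2% higher and 16% lower. Of 8 genes of ecdysteroid synthesis 3 were tested and 2 fell. These were spok, an early-step P450, at -0.45 ± 0.08 (limma adjusted p = 0.0001366), and shd, the P450 that makes 20-hydroxyecdysone, at -0.44 ± 0.09 (limma adjusted p = 0.0006983). The remaining gene, spo, was at -0.11 and not called. The mean over these 3 genes was 5.06 to 5.74 on water arrays and 4.54 to 5.48 on ethanol arrays. That is near the level of 4, below which values depend on the background model, so the sizes of these falls are uncertain. Among 4 tested genes listed as electron partners 3 were called. Cyt-b5-r, whose role as a partner of P450s was not examined, rose by 0.45 ± 0.06. The ferredoxins Fdx1 and Fdx2, mitochondrial electron carriers, fell by 0.32 and 0.24. Of 10 regulators 2 were called, or 20%, which is below the share of all probe sets. Keap1, the inhibitor of the stress factor cnc, rose by 0.36 ± 0.05 and the xenobiotic receptor Hr96 by 0.18 ± 0.06, and the other 8, cnc, EcR and ftz-f1 included, were not called.

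Tissue markers moved in the same comparison, for which the same shares of all probe sets apply. Of 9 haemocyte markers 6 fell and none rose, with a mean over the list of 8.98 to 9.41 on water arrays and 8.48 to 9.30 on ethanol arrays. Of 3 tested fat body markers 2 rose, with a list mean of 9.79 to 11.09 in water and 10.95 to 11.66 in ethanol. Of 5 epidermis and trachea markers 3 rose, of 7 midgut markers 2 rose and 1 fell, and of 4 Malpighian tubule markers 1 fell, shares of 42.9% and 25% called for the latter 2 lists. None of the 4 oenocyte markers was called, but Cyp4g1 is among them and is itself a P450 member described above. None of these tissue lists was near the floor, and their part in the P450 results was not tested.

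By selection regime, the response was called for 19 P450 probe sets in the control populations (18.1% of all probe sets), 10 in the variable populations (6.84%) and 12 in the ethanol populations (8.43%). In the control regime 9 rose and 10 fell, beside 7.96% and 10.1% of all probe sets. In the variable regime 2 rose and 8 fell, beside 3.49% and 3.34%, and in the ethanol regime 4 rose and 8 fell, beside 4.55% and 3.88%. In all of these regimes 8 probe sets were called, or 13.1%, beside 4.42% of all probe sets, namely Cyp6a18, Cyp4ac1, both sets of Cyp18a1, Cyp12a4, Cyp12c1, Cyp4c3 and Cyp6a8. Their falls in the control, variable and ethanol regimes were -1.38, -1.05 and -1.26 for Cyp6a18, and -1.05, -1.08 and -1.07 for Cyp4ac1. The rises were 0.70, 0.88 and 0.64 for Cyp4c3 and 0.66, 0.58 and 0.67 for Cyp6a8. The second Cyp18a1 set, for which the rule favoured a difference between exposures, is among the 8 and among the falls of each regime. It is no separate support. In the variable regime Cyp12c1 and Cyp6a8 were at adjusted p of 0.04782 and 0.04714. Another 8 were called in the control regime alone, or 13.1%, beside 10.1% of all probe sets, but no difference between regimes was called. One of these, Cyp6w1, was lost after quantile normalisation (adjusted p = 0.0507), without the filter on level (0.0735) and without R2 (0.623), and was called in the ethanol regime without the day 5 arrays of M and E (0.0112).

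The counts by regime depended on single populations and days. Without M1 the variable regime kept 1 call, and without R2 the control regime 5. Without the day 5 arrays of M and E the counts were 25 in the control, 5 in the variable and 16 in the ethanol regime, beside 19.4%, 3.29% and 5.29% of all probe sets. In the variable regime 4 of the 10 calls were then kept, on Cyp6a18, Cyp4ac1, Cyp12a4 and Cyp28d1, and 6 were lost. The lost ones were Cyp12a5, Cyp12c1, both sets of Cyp18a1, Cyp4c3 and Cyp6a8, with adjusted p from 0.0676 for Cyp12a5 to 0.686 for Cyp6a8, whose rise there was 0.18. Of the 8 probe sets called in all regimes, 5 thus had no call in the variable regime without those arrays. The count in all 3 regimes was then 4, or 6.56%, beside 2.1% of all probe sets.

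The response itself was compared between regimes with populations as replicates. No P450 probe set was called in limma, with 0% of all probe sets called, for ethanol against control or for variable against control populations. At an unadjusted p under 0.05 there were 2 and 7 P450 probe sets, beside 4.05% and 5.44% of all. The P450 counts were again 0 without the day 5 arrays of M and E, beside 0.0206% of all probe sets for ethanol against control. For ethanol against control the smallest p was that of Cyp309a1, whose ethanol-minus-water difference was 0.73 in R1 and 0.31 in R2 but -0.33 in E1 and -0.22 in E2. The difference of responses was -0.80 ± 0.22 (limma adjusted p = 0.9997), and Cyp309a1 had a median of 4.04 in water and 4.08 in ethanol, near the level of 4 used to choose the probe sets. For variable against control it was Cyp4s3, at 0.07 and -0.17 in R1 and R2 and -0.44 and -0.72 in M1 and M2. Its difference of responses was -0.53 ± 0.14 (limma adjusted p = 0.6652), but 0.15 (adjusted p = 0.97) without the day 5 arrays of M and E.

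P450 levels averaged over both exposures were then compared between regimes. With 2 populations per regime no P450 passed in limma for ethanol against control, variable against control or ethanol against variable, and 0% of all probe sets passed. At an unadjusted p under 0.05 there were 10, 10 and 0 P450 probe sets, beside 9.46%, 7.42% and 1.28% of all. These unadjusted counts include the day 5 arrays of M and E, whose labels are in doubt, and were not made without them. The 0 for ethanol against variable therefore does not show that these regimes were alike. Counts past the threshold were again 0 without the day 5 arrays of M and E, beside 0.0103% of all probe sets for ethanol against control. The comparisons with control share R1 and R2.

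Cyp6a16 had the smallest p in both comparisons with control. Its population means were 3.49 and 3.74 in R1 and R2, 4.47 and 4.33 in M1 and M2, and 4.35 and 4.34 in E1 and E2. Ethanol populations exceeded controls by 0.72 ± 0.13 (limma adjusted p = 0.4766) and variable ones by 0.78 ± 0.13 (limma adjusted p = 0.6531). Both control means lay below the level of 4 used to choose the probe sets, where GCRMA values depend on its background model. Among control arrays only those of R2 in ethanol on days 2 and 5 reached it, at 4.04 and 4.12. Cyp6a16 thus passed the level through M and E arrays, where it was higher, so its low p is no separate support. The counts at an unadjusted p given above include it.

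Cyp4p3 was likewise lower in the controls, with means of 8.66 and 8.37 against 8.97 to 9.15 in M1, M2, E1 and E2. Ethanol populations exceeded controls by 0.52 ± 0.12 (limma adjusted p = 0.4807). All 4 selected means lay above both control means, but Cyp4p3 was named for its small p on these same means, so this is no separate support. Without the day 5 arrays of M and E every Cyp4p3 array of E1 and E2 lay above every control array, and every Cyp6a23 array lay below, beside 0.298% of all probe sets without overlap in either direction. With all arrays no P450 separated ethanol from control populations, beside 0.0822% of all probe sets. Arrays of the variable and control populations overlapped for both genes, with and without those day 5 arrays.

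Cyp6g1, Cyp6d5 and Cyp28a5 were higher in the control populations. For Cyp6g1 the means were 12.64 and 12.79 in R1 and R2, 12.39 and 12.41 in M1 and M2, and 12.25 and 12.46 in E1 and E2, a difference of -0.36 ± 0.09 for ethanol against control (limma adjusted p = 0.4807). For Cyp6d5 the same difference was -0.46 ± 0.10 (limma adjusted p = 0.4807). For Cyp28a5 it was -0.26 ± 0.06 (limma adjusted p = 0.4807), with controls at 10.95 and 11.03 and the other means between 10.66 and 10.80. The 2 populations of each regime lay on the same side for all 3 genes. These genes had among the smallest p on the same population means, so this is no separate support.

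**Figure D4:**
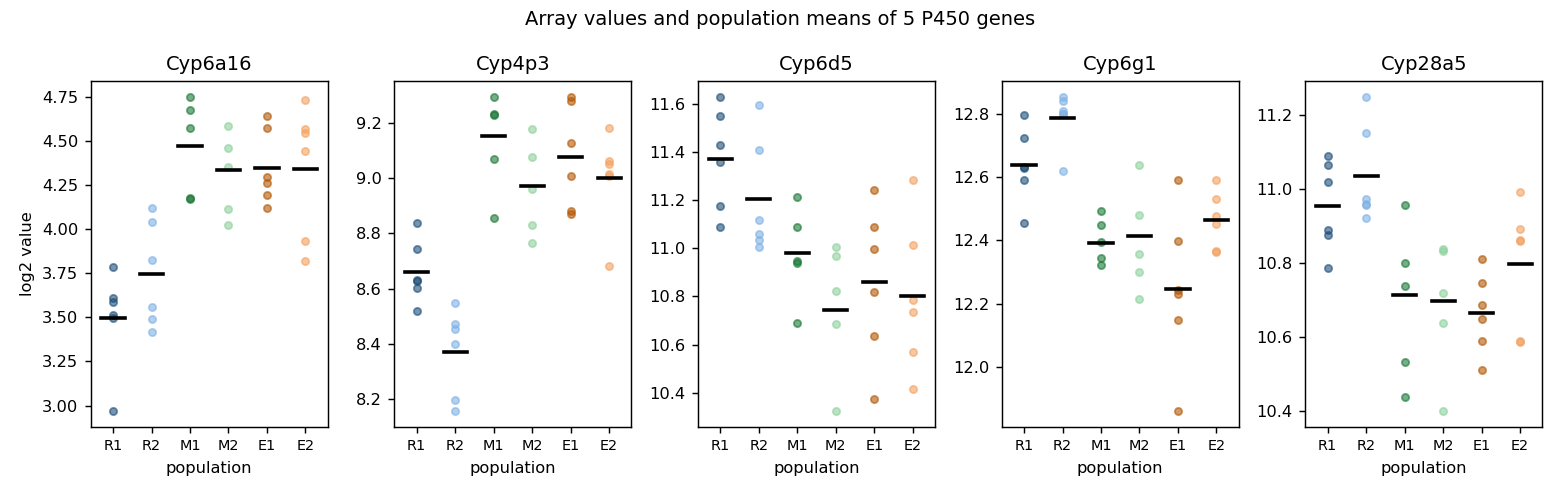
Log2 values on every array (dots) and population means (bars) for 5 P450 genes with the smallest p in ethanol against control populations; the vertical axes are cut and differ between panels. The means of R1 and R2 lie below the other 4 for Cyp6a16 and Cyp4p3 and above them for Cyp6d5, Cyp6g1 and Cyp28a5. Cyp6a16 passed the level used to choose the probe sets through M and E arrays.

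Treating arrays as replicates, which ignores that arrays of 1 population share its history, 20 P450 probe sets passed for ethanol against control (12.4% of all probe sets), 13 for variable against control (7.33%) and 0 for ethanol against variable. These counts measure the spread among RNA samples and not among selected populations. They include the day 5 arrays of M and E, so the 0 for ethanol against variable does not show that these regimes were alike.

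Populations of the same regime differed at many P450 genes. Between R2 and R1, whose day 5 labels are not in doubt, 16 of 61 P450 probe sets passed in limma, beside 8.09% of all probe sets. Of these, 6 were higher and 10 lower in R2, beside 3.89% and 4.2%. Between E2 and E1 the count was 18, beside 11%, with 8 higher and 10 lower in E2, beside 4.96% and 6.04%. Between M2 and M1 it was 8, beside 3.67%, with 3 higher and 5 lower in M2, beside 1.98% and 1.69%. Leaving out the day 5 arrays of M and E gave counts of 17, 27 and 7, beside 9.54%, 11.7% and 2.27%. Arrays did not overlap between R2 and R1 for 8 P450 probe sets, beside 2.66% of all. For E2 and E1 it was 6, beside 2.34%, and for M2 and M1 also 6, beside 2.66%. Without the day 5 arrays, which leaves fewer arrays to overlap, it was 17 for E2 and E1, or 27.9% beside 10.8%, and 15 for M2 and M1, or 24.6% beside 13%.

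**Figure D5:**
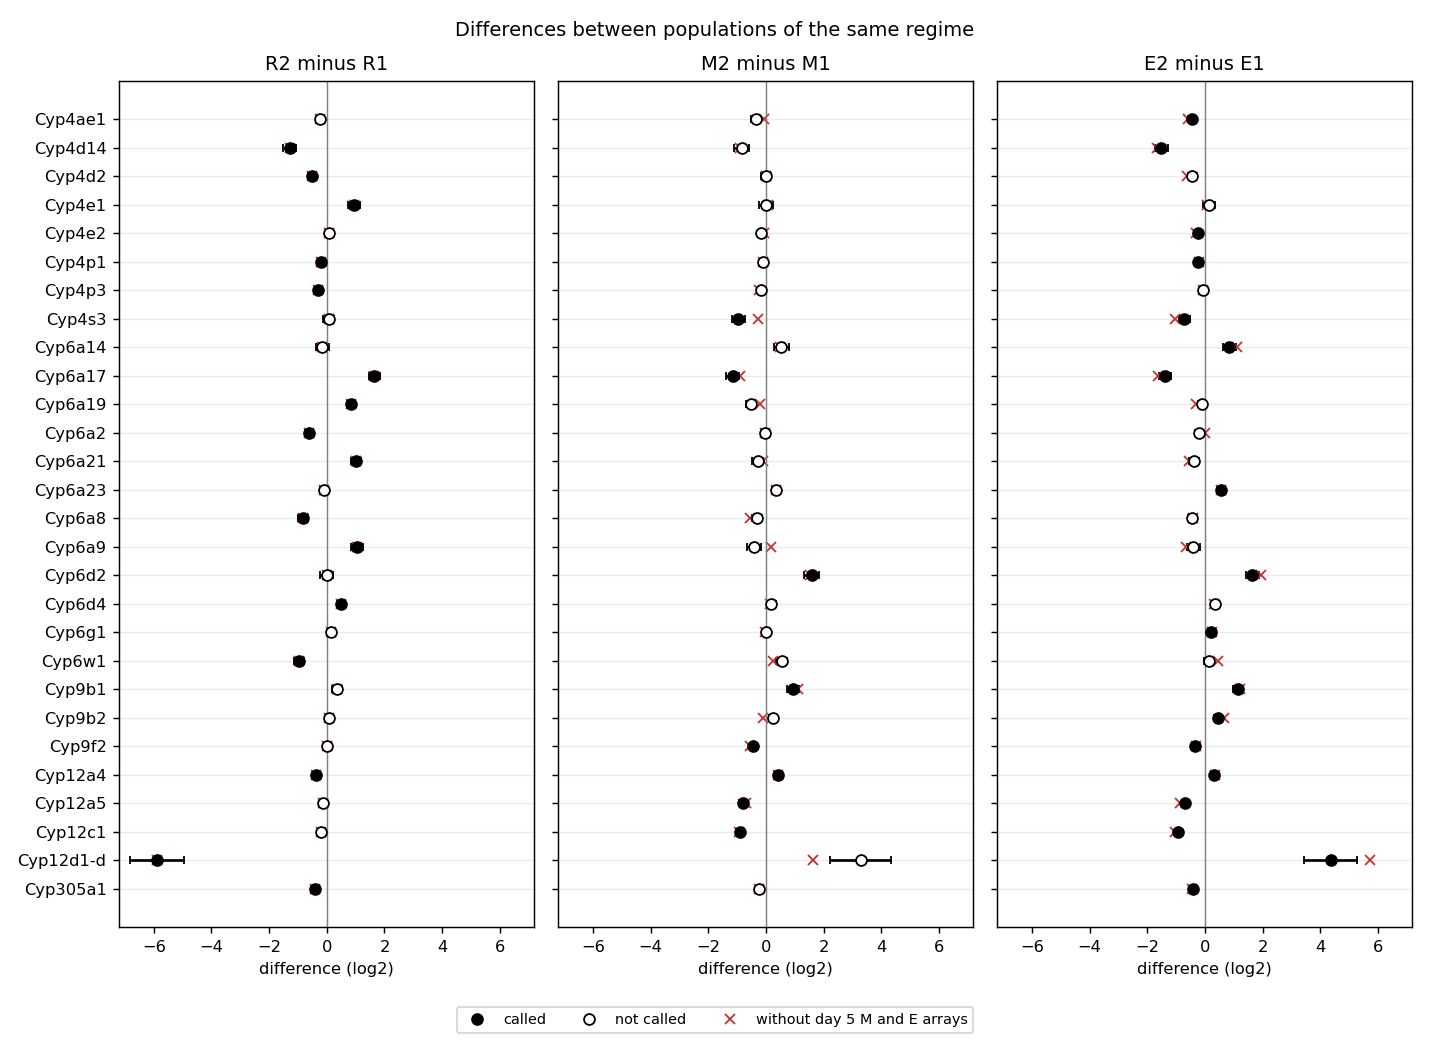
Differences (log2, with limma standard errors) between the 2 populations of each regime for the P450 probe sets called in at least 1 pair, filled where called; red crosses give the value without the day 5 arrays of the variable and ethanol populations. Cyp12d1-d lies at -5.89 in the control pair and at 4.36 in the ethanol pair, and Cyp6a17 at 1.65, -1.16 and -1.39 from left to right.

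The largest difference between populations was in Cyp12d1-d. It read 8.66 to 10.18 with a median of 9.21 in R1 and 2.17 to 4.61 with a median of 3.44 in R2, so that no arrays overlapped. The difference of R2 from R1 was -5.89 ± 0.92 (limma adjusted p = 0.000102) on the log2 scale. R2 lay below the level of 4 on 3 of its 6 arrays, where values depend on the background model, so the size of this difference is uncertain. With values below 4 set to 4, a floor chosen after the data were seen, it was -5.18. E2 read 8.09 to 9.27 and was higher than E1 by 4.36 ± 0.92 (limma adjusted p = 0.002482), or by 5.72 ± 0.40 (limma adjusted p = 1.97e-08) without the day 5 arrays of M and E. All 4 remaining E1 arrays lay below 4, so that only a bound can be given for E1, and with the floor of 4 the differences were 3.60 and at least 4.58. Without day 1 or day 2 the adjusted p of the Cyp12d1-d difference between E2 and E1 was 0.0726 or 0.189.

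M2 read 8.48 to 9.58, and its Cyp12d1-d difference from M1 was 3.28 (limma adjusted p = 0.08524), and 1.64 (limma adjusted p = 0.12) without the day 5 arrays of M and E. The same 1.64 was called without day 5 of all populations (adjusted p = 0.00651), and calls were also made without day 1 (0.0413) and without the M1 ethanol (0.0413) or M1 water (0.02) array of day 1. A second probe set, which lies outside the rule because it lists both Cyp12d1-d and its near-identical copy Cyp12d1-p, read 4.49 to 5.93 in R2 and between 6.73 and 9.86 in the other populations. It thus separated R2 from every other population, while E1, low for the Cyp12d1-d set on days 1 and 2, read 6.73 to 7.69 on it. The Cyp12d1-d and Cyp12d1-p copies cannot be told apart on the shared set.

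In the run of Cyp6a genes, R2 exceeded R1 in 4 members and fell below it in 1. Cyp6a17, which affects temperature preference, read 7.25 to 8.62 in R1 and 9.17 to 10.13 in R2, and the 2 did not overlap. Its difference was 1.65 ± 0.21 (limma adjusted p = 4.417e-06). Cyp6a9 was higher by 1.04 ± 0.22, Cyp6a21 by 1.01 ± 0.17 and Cyp6a19 by 0.83 ± 0.13, with limma adjusted p of at most 0.002188 and no overlap of arrays.

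Cyp6a8 was lower in R2, at a difference of -0.83 ± 0.16 (limma adjusted p = 0.000917), and Cyp6a20, linked to male aggression, and Cyp6a23 were not called. Cyp6a17 also separated the other pairs, with the reverse order of numbers. E1 read 9.96 to 10.81 and E2 8.58 to 9.77, a difference of -1.39 ± 0.21 (limma adjusted p = 6.028e-05), and M2 differed from M1 by -1.16 ± 0.23 (limma adjusted p = 0.003446). The Cyp6a17 call between M2 and M1 was lost without the day 5 arrays (-0.88, adjusted p = 0.121).

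Other P450s told R1 from R2. Cyp4d14 read 7.57 to 10.62 in R1 and 6.27 to 9.33 in R2, which overlap widely, and differed by -1.29 ± 0.23 (limma adjusted p = 0.000443) once the day was in the fit. Cyp6w1 read 11.43 to 11.91 in R1 and 10.08 to 11.29 in R2 without overlap, a difference of -0.98 ± 0.18 (limma adjusted p = 0.000466). Cyp4e1 read 3.61 to 4.55 in R1 and 4.61 to 5.46 in R2, also without overlap, and differed by 0.95 ± 0.20 (limma adjusted p = 0.003058), or by 0.77 with the floor of 4. Cyp6a2 differed by -0.64 ± 0.13 and Cyp12a4 by -0.38 ± 0.07, both lower in R2, with limma adjusted p of 0.002192 and 0.000715. Without day 2 the adjusted p was 0.18 for Cyp6a2, 0.0918 for Cyp6a8, 0.0547 for Cyp6a9 and 0.0503 for Cyp6w1, and without the day as a block it was 0.374 for Cyp4d14.

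Between the ethanol populations Cyp6d2 and Cyp9b1 were higher and Cyp4d14, Cyp12c1 and Cyp12a5 lower in E2. Cyp6d2 read 3.22 to 4.19 in E1 and 4.78 to 6.01 in E2 without overlap, a difference of 1.64 ± 0.22 (limma adjusted p = 1.934e-05). E1 was below 4 for Cyp6d2 on 5 of its 6 arrays, and the difference was 1.39 with the floor of 4. Cyp12c1 read 8.11 to 8.82 in E1 and 7.04 to 7.88 in E2, also without overlap, and differed by -0.92 ± 0.09 (limma adjusted p = 2.267e-07). The call on Cyp4d14 was lost without the day as a block (-1.52, adjusted p = 0.194). Both control populations were low for Cyp6d2, with 3.53 to 4.46 in R1 and 3.52 to 4.27 in R2.

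Between the variable populations, the calls included Cyp6d2, Cyp9b1 and 3 Cyp12 genes. M2 exceeded M1 for Cyp6d2 by 1.59 ± 0.25 (limma adjusted p = 0.000324; 1.19 with the floor of 4, and at least 0.81 with it and without the day 5 arrays of M and E) and for Cyp9b1 by 0.95 ± 0.21 (limma adjusted p = 0.006105), and differed by -0.89 ± 0.10 for Cyp12c1. For Cyp12a4 and Cyp12a5, which are neighbours, the signs were opposite in both pairs. Cyp12a4 was higher by 0.41 ± 0.08 in M2 and 0.32 ± 0.07 in E2, and Cyp12a5 differed by -0.80 ± 0.13 and -0.67 ± 0.11. These Cyp12, Cyp6d2 and Cyp9b1 differences passed in both pairs without the day 5 arrays too, with adjusted p of at most 0.0428. Without day 2 the adjusted p between M2 and M1 was 0.0825 for Cyp12a4, 0.0559 for Cyp12a5 and 0.121 for Cyp9b1, and between E2 and E1 0.0612 for Cyp12a4 and 0.0911 for Cyp12a5. The Cyp4s3 call between M2 and M1 (-0.96 ± 0.23) was lost without the day 5 arrays (-0.28, adjusted p = 0.559).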

How the data were processed

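Per the submitters' processing notes, the authors made the deposited log2 values with GCRMA and the affy package, which correct each probe for background, normalise the arrays and summarise each probe set; their versions are not given in the sources. Values near the floor depend on that background model, and the number of arrays limits the precision. Gene names came from the platform annotation, updated through a RefSeq gene table that held all 85 Cyp probe sets' genes. Sequence differences between populations and probes were not examined.

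Members and gene lists were chosen with earlier results of these data known. Genes to name were the 10 largest called rises and falls of the response and the smallest p per family and clan. In each other comparison they were up to 10 called members, or 3 with none called. Always included were Cyp6g1, Cyp12d1, Cyp6a2, Cyp6a8, Cyp6w1, Cyp4e2, Cyp4g1, Cyp18a1 and Cyp12a4. Members of their neighbouring runs, in which at most 1 other coding gene separates P450 genes, were added. Not all of these are given with a value in each comparison, for example Cyp9f2 between M2 and M1 and between E2 and E1. Others (Cyp6d4, Cyp6d5, Cyp6a13, Cyp9c1, Cyp28a5, Cyp313a3, Cyp313a4, Cyp305a1, Cyp4g15, calls that changed without the day 5 arrays, and smaller Cyp12 changes) were named after their values were seen.

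R 4.3.3 and limma 3.58.1 fitted the 12 population and exposure means plus the extraction day over all 34 arrays, with an intensity trend and Benjamini-Hochberg adjustment over 9729 probe sets at 0.05 (two-sided). Regimes and responses were compared over 6 population values. Deviations from group means correlated at 0.394, 0.184 and 0.423 within days 1, 2 and 5 and at -0.167 between days. The numbers mark extraction days in the labels, so the day is a block in each fit. No label gives separate cultures for the arrays of a population, so p-values of exposure reflect the spread between RNA samples, which may be technical. Scripts were tested on simulated data. Alternatives covered the filter, day block, quantile normalisation, trend, 1 probe set per gene, and left-out arrays, days and populations.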

Additional observations from a re-analysis of the deposited data

How the results depend on the processing

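No difference called in either fit changed sign. Of 8709 alternative values of named genes 164 changed sign, none of them called, among them Cyp12d1-d in the response over 6 populations, at -0.23 on day 5 alone. Leaving out an array or a day moved the P450 counts to 24 to 36 for the response over 6 populations, 8 to 20, 2 to 14 and 5 to 18 in the control, variable and ethanol regimes, 7 to 16, 4 to 12 and 5 to 29 for R2 against R1, M2 against M1 and E2 against E1, and left the 5 comparisons between regimes at 0. Without day 2 the counts of the 3 regimes were 8, 2 and 5 and those of the 3 pairs 7, 4 and 5; without day 1 the control regime gave 12 and E2 against E1 8; without day 5 E2 against E1 gave 29; without the M1 water array of day 5 the variable regime gave 6. Day 1 alone gave 12 for the response over 6 populations, and was tried after the data were seen. Without the replicate block for the day, 11 were called in the control regime, 10 for R2 against R1 and 9 for E2 against E1; other counts stayed within 1.5 times. Without the day 5 arrays of M and E the variable regime gave 5. Leaving out R1 or R2 gave 10 or 5, M1 or M2 1 or 6, and E2 6 in their regimes. Arrays as replicates gave 20 and 13 for ethanol and variable against control. The causes were not tested, beyond fewer samples where arrays were left out. With 1 probe set per gene 32 were called in the response over 6 populations, and with a mean of at least 6 it was 26. With values below 4 set to 4, added after the data were seen, the count over 6 populations was again 34, and the second Cyp18a1 set was not called in the control regime (-0.18, adjusted p = 0.123), nor, at adjusted p of 0.0518 and 0.0507, Cyp12c1 and Cyp6a8 in the variable one.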
